A study of Capra hircus with 3 samples.

Results

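Collagen genes of the goat genome were followed across the cell classes of the fetal gonad. Members were all genes whose symbol consists of COL, a number, A and a number, and 26 of the 27271 features counted met this rule. Of these, 8 encode fibrillar chains (COL1A1, COL1A2, COL2A1, COL5A2, COL5A3, COL11A1, COL11A2 and COL24A1), 3 encode basement membrane chains (COL4A1, COL4A2 and COL4A4) and 3 encode fibril-associated chains with interrupted helices, or FACITs (COL12A1, COL14A1 and COL16A1). The remaining 12 are COL6A2, COL6A3, COL6A5 and COL6A6 of the beaded filaments, the multiplexin COL15A1, the short-chain network collagens COL8A1, COL8A2 and COL10A1, the transmembrane collagens COL17A1 and COL25A1, and COL26A1 and COL28A1. Only 16616 features carry a symbol. Of 44 collagen symbols in the RefSeq gene table of goat, 26 are among the symbols of the features. Sums over the members are therefore not sums over all collagen genes. COL3A1, COL5A1, COL6A1, COL18A1, COL4A3, COL4A5 and COL4A6 are among the genes that were not analysed here.

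The series holds 3 droplet single-cell RNA libraries from Capra hircus, each labelled as testis of a male fetus, named E85, E105 and E125 for the embryonic day. The labels name no strain, treatment or number of animals per library, and the tissue was dissociated with an enzyme mixture that contained collagenase IV. Each stage is 1 library, so no difference between stages or classes could be tested against replicates. Intervals are exact 95% intervals that cover counting error only, and every stage difference below is a difference between 2 libraries.

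A collagen molecule is a triple helix of α chains that is hydroxylated in the endoplasmic reticulum, secreted as a procollagen, trimmed at its ends and, for fibrillar types, cross-linked into fibrils. Type I is the main fibril of connective tissue and type IV forms the sheet of every basement membrane. In the fetal testis a basement membrane separates the cords, made of Sertoli and germ cells, from an interstitium of stromal cells and vessels.

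The library labelled E125 went against its tissue label. AMH, the hormone of fetal Sertoli cells, stood at 1401 and 3805 UMIs per 1000000 UMIs (CPM) in the E85 and E105 libraries and at 31.6 CPM in the library labelled E125. FIGLA and ZP3, genes of oocytes, stood at 792 and 2110 CPM in that library and at no more than 1.11 and 2.57 CPM in the others. Stage, gonad type and library therefore cannot be told apart for any value of the library labelled E125.

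After filtering, 6133, 6909 and 7318 cells were kept at E85, E105 and E125, with median depths of 4659, 3069 and 3320 UMIs. Libraries shared between 6 and 10 cell barcodes per pair. Cells were assigned to a class when they expressed at least 3 markers of it, and each class is named only as resembling its type. The stromal-like class held 1908, 2742 and 3097 cells, and the endothelial-like class 293, 255 and 774. Sertoli-like cells numbered 2337, 1752 and 4, so that they were measured only at E85 and E105, as were germ-like cells (221 and 85). Pregranulosa-like (571), oocyte-like (172) and Schwann-like (77) cells were measured only in the library labelled E125. Cells gated as smooth muscle-like (148, 427 and 731) lay almost all in clusters named stromal (85.8%, 92.7% and 88.0%) and carried a median of 4, 5 and 5 stromal markers. Their values are therefore given beside those of the stromal-like class and not read as a separate type.

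Collagen UMIs were most frequent in the stromal-like, smooth muscle-like, pericyte-like and Schwann-like cells. Summed over the 26 genes, the stromal-like class held 2462, 3625 and 4107 CPM at E85, E105 and E125, and smooth muscle-like cells 2353, 3680 and 5477 CPM. Schwann-like cells, measured only in the library labelled E125, held 2950 CPM. Pericyte-like cells held 1720, 2669 and 2922 CPM, endothelial-like cells 932, 1190 and 2426 CPM, and Sertoli-like cells 282 and 416 CPM. Germ-like cells stood at 151 and 237 CPM. The lymphoid-like class, blood-borne cells that should lack these RNAs, held 41.0, 51.5 and 189 CPM, and 87.7%, 89.0% and 82.4% of its cells had no collagen UMI. The macrophage-like class held 111, 143 and 333 CPM. These 2 classes served as the reference for free RNA, and their level was higher in the library labelled E125, at median depths of 4856 to 5586 UMIs per lymphoid-like cell. Against the lymphoid-like class, 15 of 16, 17 of 17 and 17 of 19 measured members were at least 2-fold higher in stromal-like cells at E85, E105 and E125, where 36.8%, 40.1% and 32.0% of all features were. Of the members with at least 20 UMIs in a library (21, 22 and 22), the stromal-like class was the highest class for 8, 6 and 4, the smooth muscle-like cells for 4, 6 and 7, and the endothelial-like class for 4, 4 and 3. The stromal-like counts moved with the setting: the class was highest for 4 at E85 as a mean over cells, and for 11 at E105 and 12 at E125 with classes taken from clusters. The heat map of levels shows this division by family.

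**Figure D1:**
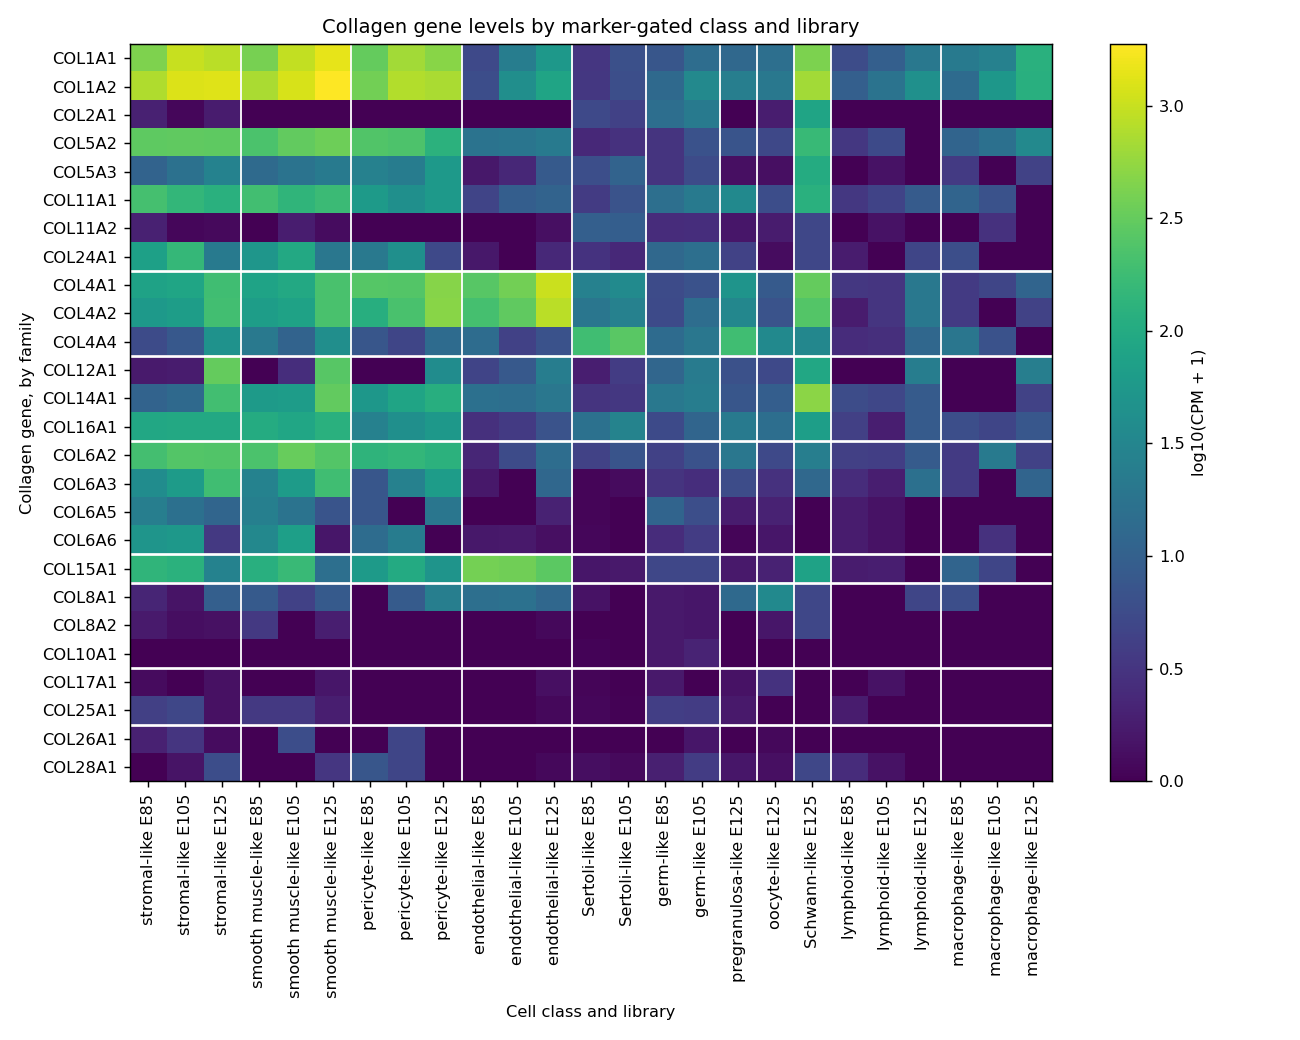
Levels of the 26 collagen genes (rows, grouped by family and separated by white lines) in each marker-gated class and library (columns), as log10(CPM + 1) of UMIs summed over the cells of the class. COL1A1 and COL1A2 are bright in the stromal-like, smooth muscle-like and pericyte-like columns, COL4A1, COL4A2 and COL15A1 in the endothelial-like columns, and COL4A4 in the Sertoli-like and pregranulosa-like columns.

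Among the fibrillar genes, the type I pair set the pattern. COL1A1, the α1 chain of type I collagen, stood at 434, 996 and 862 CPM in the stromal-like class at E85, E105 and E125, and at 316, 651 and 485 CPM in pericyte-like cells. COL1A2, the α2 chain of the same molecule, stood at 759.8, 1246 and 1283 CPM in the stromal-like class and at 376, 785 and 727 CPM in pericyte-like cells. In both classes the E85 library was the lowest for both genes. Sertoli-like cells held 2.33 and 5.30 CPM of COL1A1, below the 4.73 and 8.73 CPM of the lymphoid-like class. The stromal-like class held 76.1% and 74.9% of all COL1A1 UMIs of the E85 and E105 libraries. Stromal-like and smooth muscle-like cells could not be separated by COL1A1 at these stages, with ratios of 1.09 (0.925 to 1.28) and 1.04 (0.981 to 1.11). In the library labelled E125, smooth muscle-like cells were higher for COL1A1 (1.63-fold, 1.57 to 1.69) and COL1A2 (1.46-fold, 1.42 to 1.51), at 1406 CPM of COL1A1 against 953 CPM at E105.

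COL5A2, a type V chain that joins type I in fibrils, kept a like level in the stromal-like class of all 3 libraries but not in pericyte-like cells. It stood at 286, 297 and 289.7 CPM in the stromal-like class and at 244, 226 and 125.4 CPM in pericyte-like cells. COL5A3, another type V chain, was low in the stromal-like class at 9.94, 15.9 and 27.4 CPM and reached 104 CPM in the Schwann-like cells of the library labelled E125. COL11A1, a chain of type XI collagen that limits fibril width, stood at 205, 147 and 119 CPM in the stromal-like class, lower at E105 than at E85 where COL1A1 was higher. UMIs come from transcript ends and are not scaled by length, so ratios of 2 genes are compared only between classes or libraries. Per COL1A2 UMI, COL11A1 UMIs numbered 0.27 (0.250 to 0.291) at E85, 0.118 (0.110 to 0.126) at E105 and 0.0927 (0.0873 to 0.0984) at E125. COL24A1, a fibrillar chain known from bone, stood at 71.0, 149 and 21.1 CPM in the same class, highest at E105 and lowest at E125.

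COL2A1 and COL11A2, best known as cartilage fibril chains, were low in stromal-like cells. At E85 and E105 COL2A1 was highest in germ-like cells at 14.4 CPM at E85 and 20.5 CPM at E105, against 4.26 and 3.29 CPM in Sertoli-like cells and 0.969 and 0.155 CPM in stromal-like cells. The lymphoid-like class had 0 UMIs of it in both libraries, which allows up to 2.36 and 1.31 CPM. Germ-like exceeded Sertoli-like levels 3.38-fold (2.43 to 4.66) at E85 and 6.25-fold (4.02 to 9.57) at E105. Germ-like cells were deep, at medians of 18809 and 19462 UMIs, and 23.5% and 27.1% of them had a COL2A1 UMI. Once every cell was thinned to 2000 UMIs, these shares were 1.37% (0.283 to 3.95) and 3.53% (0.734 to 9.97), against 0.73% (0.426 to 1.17) and 0.921% (0.527 to 1.49) of Sertoli-like cells, so that the thinned shares could not be told apart in either library. In the library labelled E125 COL2A1 was highest in Schwann-like cells, at 79.6 CPM (48.6 to 123), with 20 of its 38 UMIs. COL11A2 lay mostly in Sertoli-like cells, which held 87.9% and 88.8% of its UMIs, at 8.88 and 8.43 CPM against 0.969 and 0.155 CPM in the stromal-like class. In the library labelled E125 it had 22 UMIs over all cells.

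Of the 3 basement membrane genes, COL4A1 and COL4A2 had their highest levels in endothelial-like cells, and COL4A4 in Sertoli-like and pregranulosa-like cells. COL4A1 and COL4A2 encode the chains found together in nearly all basement membranes, and the RefSeq gene table of goat assembly ARS1.2 lists them as neighbours. In endothelial-like cells COL4A1 stood at 262, 382 and 1016 CPM and COL4A2 at 204, 299.6 and 861 CPM at E85, E105 and E125. Pericyte-like cells held 257, 249 and 478 CPM of COL4A1, and stromal-like cells 77.1, 81.9 and 183 CPM. Sertoli-like cells held 26.1 and 36.0 CPM of COL4A1, against 2.36 and 2.18 CPM in lymphoid-like cells, and 18.3 and 26.4 CPM of COL4A2. In UMIs of COL4A1, Sertoli-like cells had more (661 and 678) than endothelial-like cells (432 and 581). Pregranulosa-like cells had 418 COL4A1 UMIs in the library labelled E125. At E85 endothelial-like and pericyte-like cells did not differ in COL4A1 beyond counting error (ratio 1.02, 0.735 to 1.46). The endothelial-like class was higher at E105 (1.53, 1.19 to 2.01) and in the library labelled E125 (2.13, 1.91 to 2.38). COL4A1 UMIs per COL4A2 UMI were alike in the endothelial-like, Sertoli-like and stromal-like classes at E85, at 1.29, 1.43 and 1.36. They were 1.27, 1.36 and 1.26 at E105, and pericyte-like cells had 2.29 (1.27 to 4.325) at E85. In the library labelled E125 the classes differed. The ratio was 1.18 (1.14 to 1.23) in endothelial-like, 0.969 (0.909 to 1.03) in stromal-like and 1.49 (1.28 to 1.74) in pregranulosa-like cells.

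COL4A4, a chain of the type IV network known from the kidney filter and from other specialised membranes, had another distribution. It stood at 185 CPM (179 to 190) in Sertoli-like cells at E85 and at 271 CPM (264 to 278) at E105, against 4.61 and 6.997 CPM in stromal-like and 1.58 and 1.75 CPM in lymphoid-like cells. Sertoli-like cells held 92.0% and 89.5% of its UMIs in these libraries. In the library labelled E125, pregranulosa-like cells held 187 CPM (178 to 196) and 49.5% of its UMIs. Stromal-like cells followed at 46.0 CPM, smooth muscle-like cells at 40.1 CPM and oocyte-like cells at 35.3 CPM. The 1403 cells of that library that joined no class held 83.25 CPM (385 UMIs). The Sertoli-like and pregranulosa-like classes, the supporting cells of testis and ovary, were thus the highest classes of their libraries. After thinning to 2000 UMIs, a COL4A4 UMI was found in 30.2% (28.3 to 32.1) and 42.2% (39.9 to 44.6) of Sertoli-like cells and in 34.9% (31.0 to 39.1) of pregranulosa-like cells. The lymphoid-like shares were 0%, 0.294% and 2.08%, and unthinned shares were 79.1%, 86.4% and 79.3% in the 3 supporting groups. COL4A4 UMIs per COL4A1 UMI numbered 7.08 and 7.54 in Sertoli-like cells, 3.91 in pregranulosa-like cells and 0.0509 and 0.00861 in endothelial-like cells of E85 and E105.

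**Figure D2:**
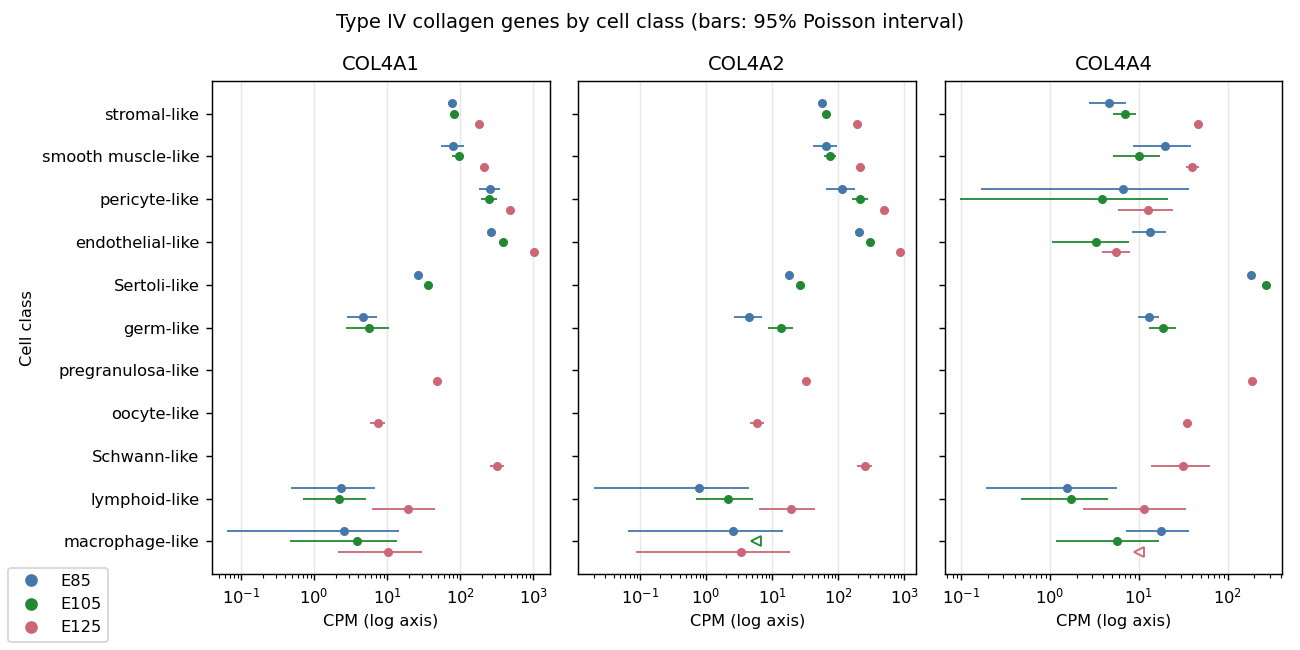
CPM (log axis) of COL4A1, COL4A2 and COL4A4 in each class, with 1 point per library and bars for the 95% Poisson interval; open triangles mark the limit that a count of 0 allows. COL4A1 and COL4A2 are highest in endothelial-like cells, up to 1016 and 861 CPM, whereas COL4A4 is highest in Sertoli-like (185 and 271 CPM) and pregranulosa-like (187 CPM) cells.

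Of the FACIT genes, whose products sit on the surface of fibrils, COL12A1 and COL14A1 differed between libraries and COL16A1 did so little in stromal-like cells. COL12A1 was nearly absent from stromal-like cells at E85 and E105, with 3 and 5 UMIs (0.727 and 0.777 CPM), and stood at 317 CPM in the library labelled E125. At E85 and E105 its highest class was the germ-like one, at 11.2 and 21.7 CPM, 3.06-fold (1.31 to 8.76) and 3.00-fold (1.503 to 6.51) above the endothelial-like class. COL14A1, a relative of COL12A1, stood at 9.94, 12.1 and 191 CPM in stromal-like cells and at 52.7, 80.4 and 111 CPM in pericyte-like cells. Smooth muscle-like cells, most of which lay in stromal clusters, held 59.6, 63.3 and 304 CPM of COL14A1, above the stromal-like level in each library. In the library labelled E125 it was highest in Schwann-like cells, at 509.6 CPM (425 to 606). COL16A1, found in several matrix types, kept the same level in stromal-like cells at 89.9, 93.3 and 93.1 CPM and was also present in Sertoli-like cells at 15.7 and 28.2 CPM, against 3.2 and 0.9 CPM in the lymphoid-like class.

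The genes of type VI collagen, the beaded filaments that link cells to fibrils, were highest in stromal-like or smooth muscle-like cells. The exception was COL6A5 in the library labelled E125, highest in pericyte-like cells (13 UMIs). Smooth muscle-like cells exceeded the stromal-like class in COL6A2 at E105 (1.29-fold, 1.15 to 1.44). Pericyte-like cells held 131.8, 145.5 and 125.4 CPM of COL6A2. Germ-like cells held 45 of 169 COL6A5 UMIs at E85. COL6A2 stood at 199, 252 and 242 CPM in the stromal-like class and COL6A3 at 38.3, 61.4 and 187 CPM. COL6A5 and COL6A6, which ARS1.2 lists as neighbours, differed: COL6A5 stood at 23.99, 15.2 and 10.8 CPM and COL6A6 at 49.7, 53.9 and 2.49 CPM. COL6A3 UMIs per COL6A2 UMI numbered 0.192 and 0.244 at E85 and E105 and 0.771 in the library labelled E125. In Sertoli-like cells COL6A5 and COL6A6 had 0 UMIs at E105, so that stromal-like cells were at least 95.8-fold and 339-fold higher against a floor of 3 UMIs.

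COL15A1, a collagen of the zone next to endothelial and muscle basement membranes, was highest in endothelial-like cells of all 3 libraries, at 385, 369 and 279.8 CPM. Stromal-like cells held 138, 124 and 27.1 CPM, and Sertoli-like cells 0.592 and 0.689 CPM, at or below the lymphoid-like level. COL8A1, a short-chain collagen of vessel walls, stood at 14.6, 15.8 and 11.5 CPM in endothelial-like cells and at 34.3 CPM in oocyte-like cells (363 UMIs), against 3.85 CPM (1 UMI) in lymphoid-like cells of the same library. Among classes of at least 50 cells, oocyte-like cells did not exceed the next, the pericyte-like class, beyond counting error (1.42-fold, 0.873 to 2.46). Of the cells gated as oocyte-like, 20.9% lay in stromal clusters. Oocyte-like cells held 40.7% of the 891 COL8A1 UMIs of that library. Its 44 mesothelial-like cells were too few to be given a level, so whether theirs was higher is not shown. The cluster of 124 cells led by ZP3, FIGLA and ZP4 at E125 gave COL8A1 at 31.8 CPM. COL17A1, a hemidesmosome collagen, had 47 UMIs over all cells, and COL25A1, a transmembrane collagen of neurons, had 91. COL28A1, a collagen known around peripheral glia, had 123 UMIs, COL26A1 had 33, COL8A2 had 27 and COL10A1, a growth plate collagen, had 7. Among stromal-like values of these 6 genes, the highest were 4.98 CPM for COL28A1 at E125, 4.04 CPM for COL25A1 at E105 and 2.18 CPM for COL26A1 at E105.

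The first comparison set stromal-like against Sertoli-like cells within a library. At E85, 19 of the 26 members had at least 20 UMIs over both classes, and 14 were at least 2-fold higher and 3 at least 2-fold lower in stromal-like cells. Over all 11332 features with that depth, 35.8% were higher and 12.0% lower. At E105, 15 of 20 members were higher and 4 lower, where 34.8% and 11.5% of features were. The median log2 ratio of the measured members was 5.16 and 4.99, against 0.64 over all features in both libraries. With trimmed-mean (TMM) scaling the median over all features was −0.13 and −0.07. The members lower in stromal-like cells were COL4A4 (0.0249-fold at E85, 0.015 to 0.039), COL2A1 and COL11A2, and at E105 also COL12A1 (0.277, 0.0863 to 0.687). At E85 COL1A2 was 315-fold (245 to 413) and COL15A1 233-fold (140 to 419) higher, both over Sertoli-like levels below the lymphoid-like level. COL4A1 and COL4A2 were 2.95-fold (2.58 to 3.38) and 3.103-fold (2.64 to 3.64) higher at E85. With TMM scaling neither reached 2-fold: their log2 ratios were 0.79 and 0.87 at E85 and 0.48 and 0.60 at E105.

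The second comparison set E105 against E85 within a class. In stromal-like cells 2 of 17 measured members were at least 2-fold higher and 0 were at least 2-fold lower, where 5.75% and 1.91% of all features were. COL1A1 was 2.29-fold higher (2.17 to 2.42) and COL24A1 2.10-fold higher (1.84 to 2.41). Below that fold, COL1A2 was 1.64-fold (1.57 to 1.71), COL6A3 1.60-fold (1.33 to 1.94) and COL6A2 1.27-fold (1.16 to 1.38) the E85 level. COL11A1 stood at 0.717 (0.652 to 0.787) and COL6A5 at 0.635 (0.475 to 0.848) of it. COL5A2, COL16A1 and COL6A6 had intervals that included 1. In smooth muscle-like cells 3 of 16 were at least 2-fold higher and 1 lower, where 7.23% and 2.5% of features were. The higher ones were COL1A1 at 2.38-fold (2.02 to 2.83), COL6A3 and COL6A6, the lower one was COL4A4 (8 and 12 UMIs), and COL11A1 stood at 0.71 (0.539 to 0.942). In pericyte-like cells 2 of 9 were higher and 0 lower, where 7.62% and 3.14% of features were: COL1A1 was 2.06-fold (1.49 to 2.90) and COL1A2 2.09-fold (1.55 to 2.85).

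In Sertoli-like cells 4 of 16 measured members were at least 2-fold higher at E105 and 0 lower, where 5.55% and 1.95% of features were. These were COL1A1, COL1A2, COL11A1 and COL12A1, all under 6 CPM. As a mean over cells 2 were called, and 1 with called doublets kept. In lymphoid-like cells COL1A1 had 6 and 20 UMIs (1.85-fold, 0.715 to 5.62), COL1A2 11 and 38, COL11A1 3 and 8, and COL12A1 0 in both libraries; the part of free RNA in these values was not tested. The more abundant COL4A4 was 1.47-fold higher (1.41 to 1.53), COL4A1 1.38-fold (1.24 to 1.54), COL4A2 1.45-fold (1.27 to 1.64) and COL16A1 1.80-fold (1.57 to 2.05). COL5A3 lay just short of the call at 1.99-fold (1.58 to 2.51), and COL11A2 was 0.949-fold (0.77 to 1.17). In endothelial-like cells 2 of 9 measured members were higher and 1 lower, where 5.49% and 1.5% of features were. The higher ones were COL1A1 (7 and 36 UMIs) and COL1A2 (8 and 62 UMIs), and the lower one was COL4A4 (22 and 5 UMIs). With classes from clusters 4 were higher and 0 lower, and COL4A4 turned to a log2 ratio of 0.40. COL4A1 and COL4A2 were 1.45-fold (1.28 to 1.65) and 1.47-fold (1.28 to 1.70) higher, close to their ratios in Sertoli-like cells. COL15A1 was 0.958-fold (0.854 to 1.07). In germ-like cells 4 of 14 were at least 2-fold higher and 0 lower by the log2 ratio used for calls, where 6.48% and 1.51% of features were.

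**Figure D3:**
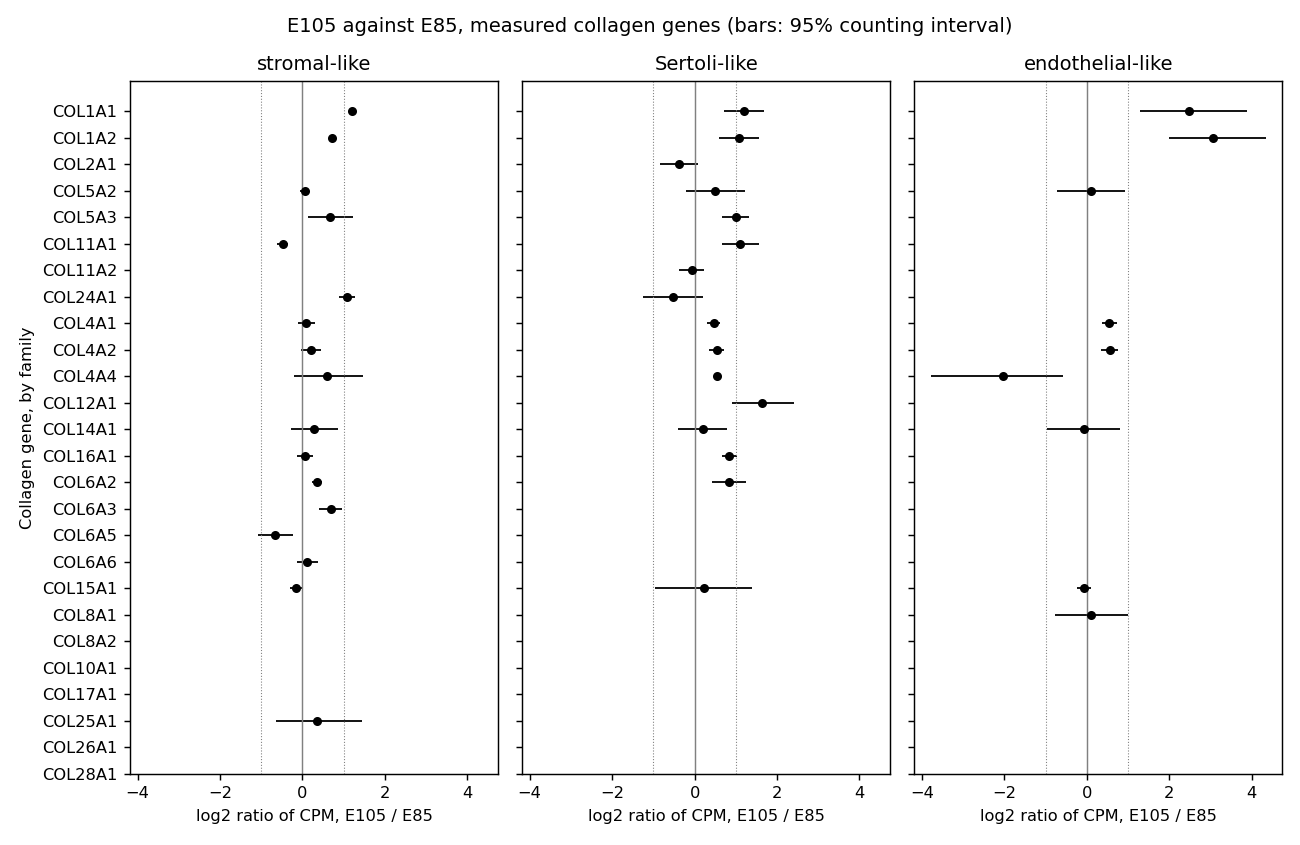
Log2 ratio of CPM at E105 over E85 for each collagen gene with at least 20 UMIs over both libraries, in stromal-like, Sertoli-like and endothelial-like cells. Bars are 95% counting intervals and dotted lines mark 2-fold. COL1A1 lies past 2-fold in all 3 panels, and COL11A1 lies left of 0 in stromal-like and right of 0 in Sertoli-like cells.

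The stromal-like class was not uniform in its collagens. Clusters of cells were built without any collagen gene, and 3 of them made up most stromal-like cells of E85 and E105. Clusters 6 and 7 were both led by CCN3, DLK1 and SHOX2 among their first genes, and cluster 9 was led by TAC1, NTRK2 and PENK. Cluster 9 held 5.35% of stromal-like cells at E85 and 43.4% at E105. At E105, COL1A1 stood at 1423 CPM in cluster 9 and at 688 CPM in clusters 6 and 7 together, a 2.07-fold difference (1.97 to 2.17). COL24A1 stood at 199.7 and 106 CPM (1.88-fold, 1.66 to 2.13), whereas COL15A1 was lower in cluster 9, at 61.7 against 192 CPM (0.321-fold, 0.274 to 0.375). At E105, 2 of 17 measured members were at least 2-fold higher and 2 lower in cluster 9, where 2.96% and 2.0% of features were. At E85, when cluster 9 held 131 cells, 1 of 14 was higher and 1 lower, where 6.77% and 7.78% of features were. The lower one was COL24A1, at 36.2 against 76.3 CPM (0.475-fold, 0.226 to 0.886). It rests on 10 UMIs in cluster 9, and 1 of 14 is near the share of all features. The order of COL24A1 between these clusters was opposite at E105, and this difference was not tested. At E85 COL1A1 was 1.445-fold (1.229 to 1.69) and COL15A1 0.772-fold (0.516 to 1.115) in cluster 9.

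The E105 to E85 ratio of COL1A1 was therefore taken within each cluster. All cells of a cluster were used, also those outside the stromal-like gate. The ratio was 1.59 (1.45 to 1.74) in cluster 6 and 1.51 (1.40 to 1.65) in cluster 7, below the 2.29 of the whole class. In cluster 9 it was 2.25 (1.94 to 2.64), an interval that included 2.29. COL24A1 had ratios of 1.06 (0.841 to 1.34), 1.62 (1.33 to 1.99) and 5.51 (2.98 to 11.5) in the same order, the last over 10 UMIs at E85. COL11A1 was lower at E105 in clusters 6 and 7, at 0.646 (0.55 to 0.757) and 0.787 (0.686 to 0.904), and had an interval that included 1 in cluster 9. COL1A2 was higher in each, at 1.24, 1.27 and 2.04. By the 2-fold call, 1 of 15 members was higher and 0 lower in cluster 6 (4.84% and 2.29% of features), 1 of 16 and 0 in cluster 7 (4.96% and 1.89%), and 3 of 15 and 1 in cluster 9 (11.0% and 4.81%). The calls in clusters 6 and 7 were COL4A4 and COL14A1 with 22 UMIs or fewer per library, and the lower one in cluster 9 was COL6A5. COL15A1 was higher at E105 in clusters 6 and 7, at 1.39 (1.17 to 1.66) and 1.28 (1.11 to 1.48), and lower in cluster 9, at 0.567 (0.386 to 0.863), whereas the whole class gave 0.897 (0.805 to 1.00). The type I ratios were thus above 1 in each of the 3 clusters. The share of cluster 9 moved with the ratios of the whole class, and its part in them was not tested.

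**Figure D4:**
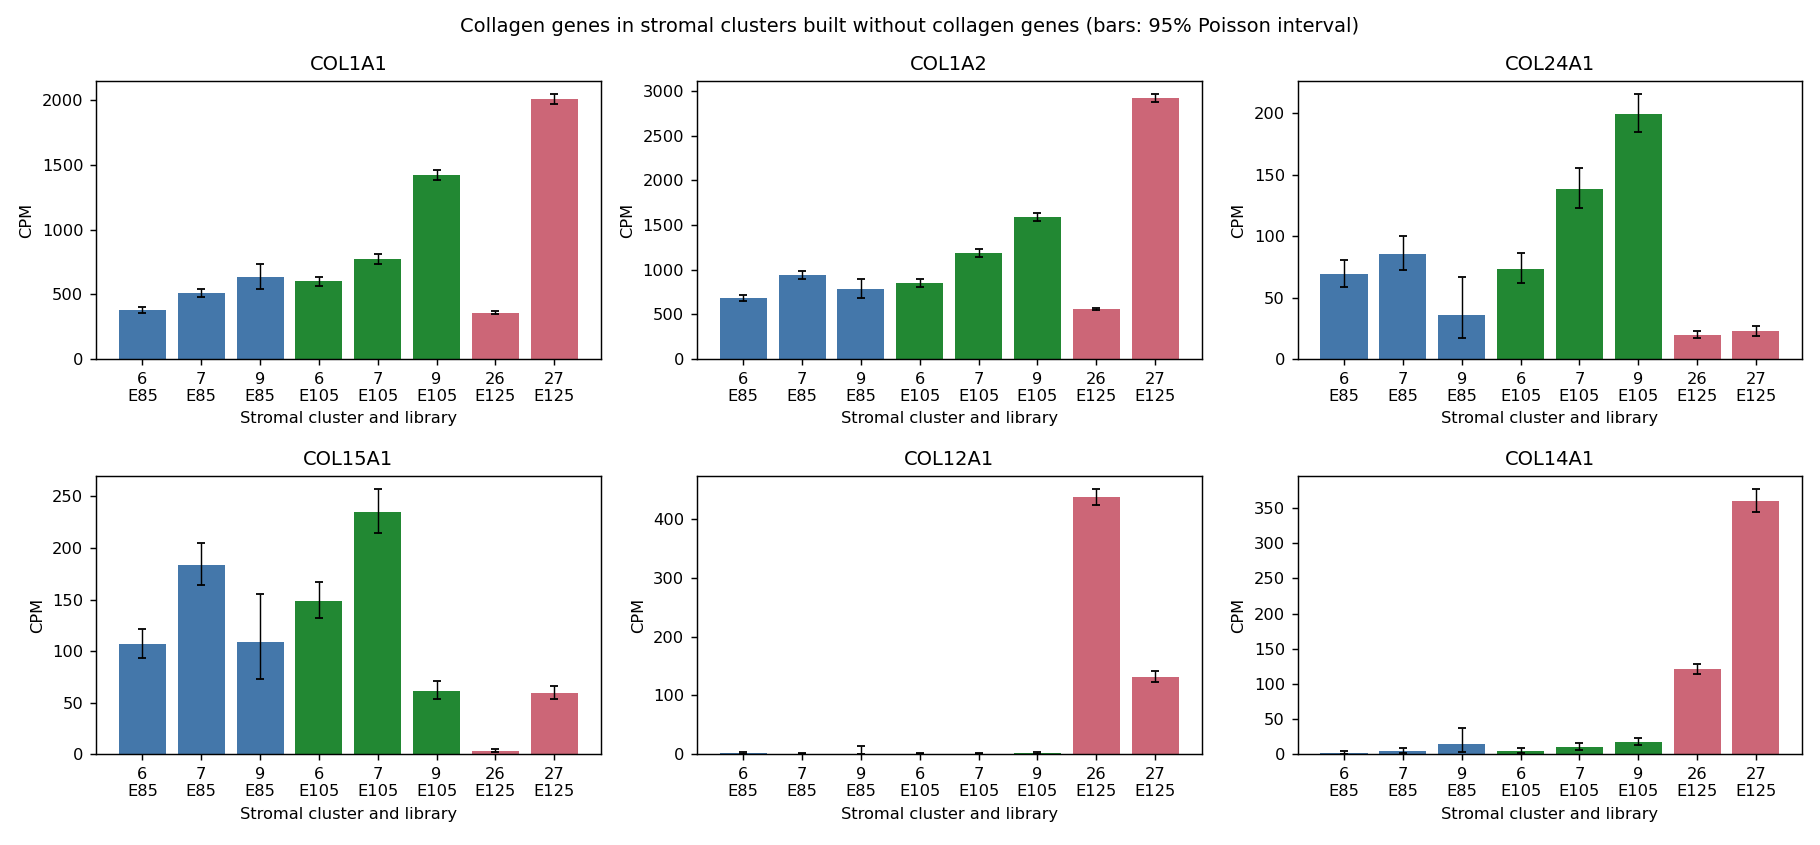
CPM of 6 collagen genes in stromal clusters of each library, with 95% Poisson intervals; clusters 6 and 7 are led by CCN3, DLK1 and SHOX2, cluster 9 by TAC1, NTRK2 and PENK, cluster 26 by SULF1 and MGP, and cluster 27 by CHODL. COL1A1 reaches 1423 CPM in cluster 9 at E105 and 2010 CPM in cluster 27 at E125, and COL12A1 is high only in the clusters of the library labelled E125, at 437 and 131 CPM.

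The third comparison set the library labelled E125 against E105. In stromal-like cells 8 of 20 measured members were at least 2-fold higher and 4 lower, where 16.5% and 15.6% of features were. The higher members were COL4A1, COL4A2, COL4A4, COL6A3, COL8A1, COL12A1, COL14A1 and COL28A1, with COL12A1 at 408-fold (175 to 1257) and COL14A1 at 15.7-fold (12.5 to 19.97). The lower members were COL6A6 (0.0462-fold, 0.0295 to 0.0693), COL15A1 (0.219, 0.19 to 0.252), COL24A1 (0.141, 0.121 to 0.164) and COL25A1. COL1A2, COL5A2, COL6A2 and COL16A1 lay between 0.961-fold and 1.03-fold. In smooth muscle-like cells 7 of 18 were higher and 4 lower, where 15.6% and 15.1% of features were, and COL12A1 (158-fold), COL14A1 (4.80-fold) and COL15A1 (0.088-fold) were on the same side as in stromal-like cells. In pericyte-like cells 4 of 13 were higher and 1 lower, where 14.3% and 10.5% of features were: COL4A2, COL5A3, COL6A3 and COL12A1 were higher and COL15A1 was lower at 0.487-fold (0.284 to 0.845). No stromal-like cell of the library labelled E125 lay in clusters 6, 7 or 9, and of the clusters that held stromal-like cells of E105, 1 also held some of E125 (40 and 69 cells). Most of the cells compared thus lay in different clusters.

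Within the library labelled E125, 63.2% of stromal-like cells lay in cluster 26, led by SULF1, MGP and ITIH5, and 31.0% in cluster 27, led by CHODL, PENK and LTBP1. In cluster 27, 12 of 19 measured members were at least 2-fold higher and 2 lower than in cluster 26, where 4.52% and 6.37% of features were. COL1A1 stood at 2010 and 359 CPM in clusters 27 and 26 (5.60-fold, 5.39 to 5.82), COL1A2 at 2919 and 561 CPM (5.20-fold, 5.05 to 5.37) and COL15A1 at 59.6 and 3.56 CPM (16.8-fold, 11.8 to 24.6). COL14A1 was 2.97-fold (2.76 to 3.19), COL6A2 2.67-fold (2.50 to 2.85) and COL11A1 2.50-fold (2.29 to 2.73) higher. The lower members were COL12A1, at 131 and 437 CPM (0.301-fold, 0.278 to 0.326), and COL4A4, at 13.8 and 61.1 CPM (0.225-fold, 0.175 to 0.287). The 2 FACIT relatives COL12A1 and COL14A1 thus had opposite orders in the 2 clusters.

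In endothelial-like cells 8 of 15 measured members were at least 2-fold higher in the library labelled E125 and 0 lower, where 14.2% and 9.71% of features were. The higher members were COL1A1, COL4A1, COL4A2, COL5A3, COL6A2, COL6A3, COL12A1 and COL16A1. COL16A1 rested on 4 and 34 UMIs at E105 and E125, with an interval that included 1 (0.805 to 8.76). COL4A1 was 2.66-fold (2.44 to 2.90) and COL4A2 2.87-fold (2.61 to 3.17) higher, and COL15A1 was 0.759-fold (0.689 to 0.837). As a mean over cells, or without the top 6% of doublet scores, 5 were higher. Endothelial clusters also differed between the libraries: cluster 12, led by PNOC, VWF and CDH5, held 249 cells of E105 and 61 of E125, and cluster 23, led by CA4, ID1 and ROBO4, held 6 and 694. Within cluster 12, COL4A1 stood at 393 CPM (362 to 427) at E105 and 1215 CPM (1114 to 1321) at E125, COL4A2 at 306 and 956 CPM, and COL15A1 at 374 and 339 CPM. Endothelial-like COL1A1 and COL1A2 stood at 54.3 and 81.5 CPM, beside 19.2 and 42.4 CPM in lymphoid-like and 119 and 116 CPM in macrophage-like cells of that library. The part of free RNA in these type I values was not tested. A cluster of 65 cells led by CCL21, FLT4 and FGL1, with PROX1 among its first genes, differed from the main cluster of 694 cells led by CA4, ID1 and ROBO4. COL4A1 stood at 155 against 1003 CPM (0.155-fold, 0.122 to 0.195), COL4A2 at 87.0 against 868 CPM and COL15A1 at 49.7 against 273 CPM. COL5A2 was higher in the smaller cluster, at 53.9 against 20.1 CPM (2.68-fold, 1.68 to 4.14). Of 15 measured members, 3 were at least 2-fold higher and 12 lower there, where 7.3% and 20.8% of features were.

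The other genes of collagen assembly were taken from lists of chain modification, folding and export, propeptide removal, cross-linking and receptor genes, with 41 members in all. Between stromal-like and Sertoli-like cells at E85, 13 of 33 measured were at least 2-fold higher and 5 lower, and at E105 16 of 35 were higher and 7 lower, beside 35.8% and 12.0% of all features at E85 and 34.8% and 11.5% at E105. The median log2 ratio of the measured assembly genes was 0.42 at E85 and 0.59 at E105, against 0.64 over all features in both libraries. By this median the lists as a whole were not shifted towards stromal-like cells beyond all features. With TMM scaling 10 and 11 were lower, and with at least 50 UMIs per gene 7 were higher at E85. At E105 the 5 cross-linking genes were all higher in stromal-like cells. LOX, which oxidises lysines for cross-links, stood at 17.6 against 0.583 CPM, and LOXL1 was at least 43.0-fold higher against a floor of 3 UMIs. PCOLCE, an enhancer of procollagen trimming, stood at 244 against 1.96 CPM, whereas its relative PCOLCE2 had the opposite order at 2.64 against 148 CPM. Chain modification genes were divided, with 2 of 13 higher and 5 lower. P4HA1, a prolyl hydroxylase subunit, stood at 27.1 against 6.74 CPM, and its alternative P4HA2 at 159 against 568 CPM. The receptor DDR2, which binds fibrillar collagen, was at least 118-fold higher, and the integrin subunit ITGA2 was lower at 4.35 against 13.9 CPM. SERPINH1, the collagen chaperone, was within 2-fold between these classes, at 1403 and 1143 CPM.

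Between E85 and E105, 6 of 34 measured assembly genes were at least 2-fold higher in stromal-like cells and 0 lower, where 5.75% and 1.91% of all features were. LOX stood at 3.39 and 17.6 CPM (5.18-fold, 2.96 to 9.77), LOXL1 at 1.94 and 6.84 CPM (3.53-fold, 1.64 to 8.68) and PCOLCE at 96.7 and 244 CPM (2.52-fold, 2.26 to 2.82). ADAMTS2, which removes the amino-terminal propeptide, stood at 1.21 and 3.73 CPM, and P3H2, a prolyl hydroxylase that acts on basement membrane collagen, at 9.45 and 31.1 CPM. In Sertoli-like cells 5 of 32 were higher and 0 lower, where 5.55% and 1.95% of all features were, with P3H2 at 13.7 and 36.3 CPM (2.66-fold, 2.33 to 3.03). P4HA2 was lower at E105 in both classes, at 0.704-fold (0.643 to 0.77) and 0.773-fold (0.755 to 0.791). In stromal-like cells of the library labelled E125, 8 of 37 were at least 2-fold higher and 4 lower than at E105, near the 16.5% and 15.6% of all features. PCOLCE2 stood at 149 CPM there against 2.64 CPM at E105, and LOX at 5.08 against 17.6 CPM.

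**Figure D5:**
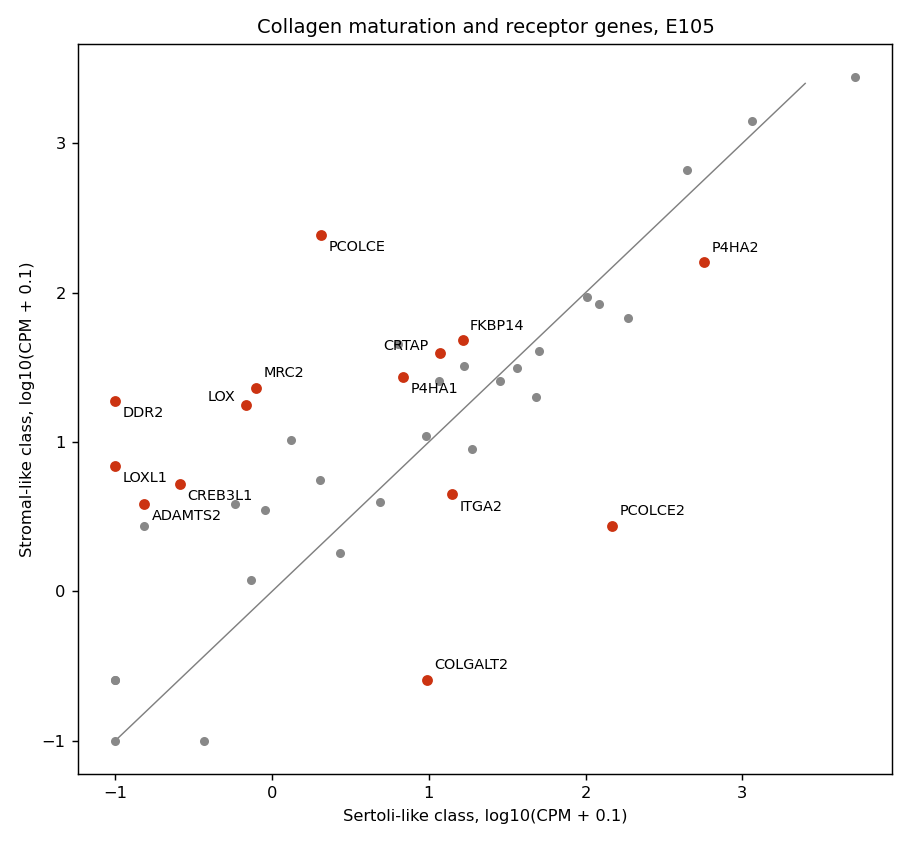
Levels of the collagen maturation and receptor genes at E105 in stromal-like (vertical) against Sertoli-like cells (horizontal), as log10(CPM + 0.1), with the line of equal levels. Named points are the genes given by the rule for named genes; PCOLCE (244 against 1.96 CPM) lies far above the line and PCOLCE2 (2.64 against 148 CPM) far below it.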

How the data were processed

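The deposited matrices hold raw UMI counts per gene and cell of single-cell libraries of 3' ends, and the counts were used as deposited. The counts were made with Cell Ranger, version 6.0.0 per the file headers and 3.1 per the submitters' processing notes; the genome build is not given in the sources used here. Barcodes with at least 1000 UMIs, 500 genes and at most 20% UMIs of 13 mitochondrial genes were kept. Scrublet in scanpy 1.11.5 (expected rate 6%) marked 195, 160 and 1 doublets, which were removed; at 0.0137% of E125 it did not work there. A cell joined the class with the highest mean standardised marker score if it had at least 3 of its markers and led the next class by 0.2; 799, 916 and 1403 cells joined none and 50, 108 and 207 were ambiguous. Counts were summed per class and library and divided by all UMIs of the class (CPM). Classes needed 50 cells and genes 20 UMIs; a call is a 2-fold difference of log2 ratios with 0.5 UMIs added. Intervals are exact Poisson, or Clopper-Pearson for shares and for ratios as the split of 2 counts; they cover counting error only. A limit for 0 uses 3 UMIs. Clusters (32, Leiden, resolution 1) used 3000 variable genes without collagen and maturation genes, 30 components and 15 neighbours. edgeR 4.0.16 gave TMM factors only. Ratios were run on simulated Poisson counts without variation between cells or libraries, which checks the calculation only. Collagen members with at least 200 UMIs were named, with the 6 next; from each assembly list, up to 2 higher and 2 lower members with the ratio bound farthest from 1 in the contrast described were named. SERPINH1, between stromal-like and Sertoli-like cells, was chosen after its values were seen. Members, marker lists and gene lists were chosen with earlier results of these data known. Alternatives to these settings are given in the closing section.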

Additional observations from a re-analysis of the deposited data

Results flagged for a closer look

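COL4A4 had opposite E105 to E85 ratios in 2 classes. It was 1.467-fold in Sertoli-like cells (4678 and 5110 UMIs) and 0.2458-fold in endothelial-like cells, where it rests on 22 and 5 UMIs. With classes from clusters the endothelial-like ratio turned to a log2 value of 0.40, so that the 2 ratios were then on the same side. COL11A1 was 2.161-fold in Sertoli-like cells at levels of 2.72 and 5.89 CPM, and 0.7167-fold in stromal-like and 0.7099-fold in smooth muscle-like cells. With 1 library per stage, the difference between classes was not tested for either gene.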

How the results depend on the processing

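No paired analysis was possible because each stage is 1 library, and no replicate could be left out. Removing the top 6% of doublet scores was chosen after seeing the data. Of the log2 ratios of named genes, 4 reversed: COL5A3 between stromal-like and Sertoli-like cells at E105 (−0.06 with TMM scaling), COL4A4 between E105 and E85 in endothelial-like cells (0.40 with classes from clusters), and COL1A2 between E125 and E105 as a mean over cells (−0.08 in endothelial-like and −0.0 in stromal-like cells). With at least 50 UMIs per gene, 7 assembly genes were higher in stromal-like than Sertoli-like cells at E85, and with TMM scaling 10 were lower at E85 and 11 at E105. For E105 against E85 in Sertoli-like cells, 2 collagens were higher as a mean over cells and 1 with called doublets kept. With at least 1 UMI per gene, 6 were lower in Sertoli-like cells, and in stromal-like cells 4 were higher and 5 lower. In endothelial-like cells, 4 were higher and 0 lower with clusters, 1 and 0 with at least 50 UMIs, and 4 and 3 with at least 1 UMI. For E125 against E105 in endothelial-like cells, 5 were higher as a mean over cells and 5 with top doublet scores removed, and 1 was lower with that removal and 1 with at least 1 UMI. The stromal-like class was highest for 4 collagens at E85 as a mean over cells, and with clusters for 11 at E105 and 12 at E125. The cause of these shifts was not tested, except that the gene minimum changes how many genes are counted.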

Other observations

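An unnamed cluster led by HEPACAM, PCSK1 and CLDN1 held 69 cells at E85. COL14A1 stood there at 589 CPM (513 to 672), COL4A4 at 399 CPM (337 to 469), COL8A1 at 252 CPM (204 to 309) and COL5A2 at 247 CPM (199 to 303). COL4A4 and COL8A1 were thus above the 185 CPM of Sertoli-like and the 14.6 CPM of endothelial-like cells in that library.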
